A study of Homo sapiens with 16 samples.

Results

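Extracellular signal-regulated kinase (ERK) stands at the end of a chain of kinases that runs from receptor tyrosine kinases through RAS, RAF and MEK. The pathway limits itself at several levels: dual-specificity phosphatases (DUSPs) take phosphate groups off ERK and its relatives, and the Sprouty and Spred proteins act further up, between the receptor and RAF. Many of these inhibitors are themselves transcribed when ERK is active, so their transcripts are widely read as a record of ERK output, and in myeloid leukemia cells the pathway bears on both proliferation and differentiation.

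The expression of 10 such genes, DUSP1, DUSP2, DUSP4, DUSP5, DUSP6, DUSP10, SPRY1, SPRY2, SPRY4 and SPRED2, was followed in OCI-AML3 cells, a human acute myeloid leukemia cell line, 3 h after exposure to retinoids. The genes were chosen by symbol from the 62700 genes of the deposited table, with earlier results of these data known. Their counts beside the shares of all genes are therefore a description, and an excess over those shares was not tested. RNA-seq libraries came from cells labelled Untreated (4 libraries) and from cells given ATRA or AM80, each at 0.1 µM, or either retinoid at that dose together with 2 inhibitors, with 3 libraries in each treated group. ATRA (all-trans retinoic acid) activates all retinoic acid receptors, and AM80 (tamibarotene) is a synthetic agonist selective for retinoic acid receptor alpha, in which an aromatic amide replaces the polyene chain of ATRA. GSK-LSD1, used at 0.1 µM, inhibits the histone demethylase LSD1, and MB3, used at 100 µM, inhibits the histone acetyltransferase GCN5. These groups are called ATRA-LSDi-MB3 and AM80-LSDi-MB3 below. Both inhibitors were always given together with a retinoid, so the effect of one inhibitor cannot be told apart from that of the other, nor from a dependence on the retinoid. By the study's methods the treated cells were taken after 3 h. No harvest time is given for the Untreated cells, so treatment and time in culture cannot be told apart in comparisons with them. The label Untreated names no vehicle either, so effects of solvent or handling cannot be told apart from those of the compounds. All libraries came from a single cell line, and the labels do not say that the libraries of a group are separate cultures, so the p-values measure the spread between these libraries, which may be technical.

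The libraries held 11963898 to 33789718 reads assigned to genes. Several myeloid transcripts were abundant in untreated cells (SPI1, 4658 ± 423 normalized counts, and LYZ, 11102 ± 916, SD, n = 4). CEBPA stood at 6414 ± 1092, CSF3R at 2580 ± 155 and CD33 at 1359 ± 24. Other myeloid markers were lower, with CSF1R at 311 ± 14, CD14 at 93.0 ± 11 and ITGAM at 49.7 ± 8.4. MPO, an enzyme of granulocyte precursors, stood at 46.9 ± 5.0. The 9 markers of T cells, erythroid cells, platelets and other blood cells reported here were below the filter on low values.

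Values are normalized counts, that is, reads divided by the size factor of the library. Differences are log2 fold changes of the normalized count plus a pseudocount of 1, fitted with limma over the 14643 genes whose mean across libraries reached 10 normalized counts, and p-values carry the Benjamini-Hochberg adjustment over those genes. A gene is said to have risen or fallen where the adjusted p was under 0.05 and the fold change over 1.5. All 10 genes passed the filter on low values. SPRY1 passed it narrowly, at a mean of 10.2 over the 16 libraries, and only through its level in treated cells.

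Upstream sequence is shown first for 3 genes that passed both limits with both retinoids, DUSP2, which fell, and DUSP6 and SPRY2, which rose. SPRY1 also passed with both retinoids, but its windows are not shown. A link between sequence and direction of change was not tested. The windows are from RefSeq (GRCh38.p14), read 5′ to 3′ along the gene's own strand, and exact matches to 5 short motifs on either strand stand in capitals. The motifs were an ETS core (CGGAAG), a cAMP response element (TGACGTCA), an AP-1 site (TGANTCA), a nuclear receptor half-site (AGGTCA) and an SP1 box (GGGCGG). For DUSP2 (chr2:96145441-96145690, minus strand) and SPRY2 (chr13:80341127-80341376, minus strand) the 250 bases before a RefSeq start site are given. SPRY2 has other RefSeq start sites, whose windows matched none of the motifs and are not shown. For DUSP6 (chr12:89352546-89352575, minus strand) 30 bases are given, which lie before the RefSeq start site but inside an exon of a longer GENCODE v29 transcript.
DUSP2: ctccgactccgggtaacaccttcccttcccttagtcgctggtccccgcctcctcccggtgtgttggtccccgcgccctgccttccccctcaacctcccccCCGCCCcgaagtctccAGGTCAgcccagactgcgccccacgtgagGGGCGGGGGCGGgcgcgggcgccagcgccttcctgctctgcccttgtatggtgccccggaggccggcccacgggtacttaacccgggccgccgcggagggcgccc
SPRY2: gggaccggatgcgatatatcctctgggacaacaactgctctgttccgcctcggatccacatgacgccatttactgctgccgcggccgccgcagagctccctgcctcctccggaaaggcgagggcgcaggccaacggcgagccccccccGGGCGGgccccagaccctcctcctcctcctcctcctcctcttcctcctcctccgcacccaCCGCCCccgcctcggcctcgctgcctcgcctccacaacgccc
DUSP6: cggcaacagcccCTTCCGcagcacgctcat

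The capitals mark 3 SP1 boxes, the last pair directly adjoining, and 1 nuclear receptor half-site in DUSP2, 2 SP1 boxes in SPRY2 and 1 ETS core, on the opposite strand, in DUSP6. RefSeq promoters were used for 8 of the 10 genes, in 13 windows. DUSP5 had none in the reference, and windows on chromosome 8, where DUSP4 lies, were left out. The set of all promoters was not limited in this way. An SP1 box was present in 7 of the 13 windows, which belong to 6 of these 8 genes, and in 42.6% of all 35116 promoters of the same length. The ETS core was found in 2 of the 13 windows, in DUSP6 and SPRY1 (16.5% of all promoters), the half-site in 2, in DUSP2 and DUSP10 (12.1%), and the cAMP response element in 1, in DUSP1 (1.65%), where it lay between 2 SP1 boxes. No window of these genes matched the AP-1 letters, which 6.57% of all promoters hold. Letters in a window do not show that a factor binds there.

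In untreated cells SPRY2, SPRY4 and SPRED2 were the most abundant of the 10 per kb of exon and SPRY1 the least. Levels per kb of exon (GENCODE v29) were 405 ± 18 normalized counts for SPRY2, 146 ± 8.0 for SPRY4 and 118 ± 13 for SPRED2 (SD, n = 4). The phosphatases followed, with DUSP2 at 76.1 ± 17 normalized counts per kb, DUSP5 at 61.7 ± 3.3 and DUSP10 at 47.9 ± 2.5. DUSP4 stood at 21.8 ± 2.6, DUSP6 at 13.1 ± 1.7 and DUSP1 at 12.6 ± 1.4 normalized counts per kb, so that DUSP6 and DUSP1 did not differ beyond their spread. SPRY1 was close to absent, at 0.482 ± 0.42.

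**Figure D1:**
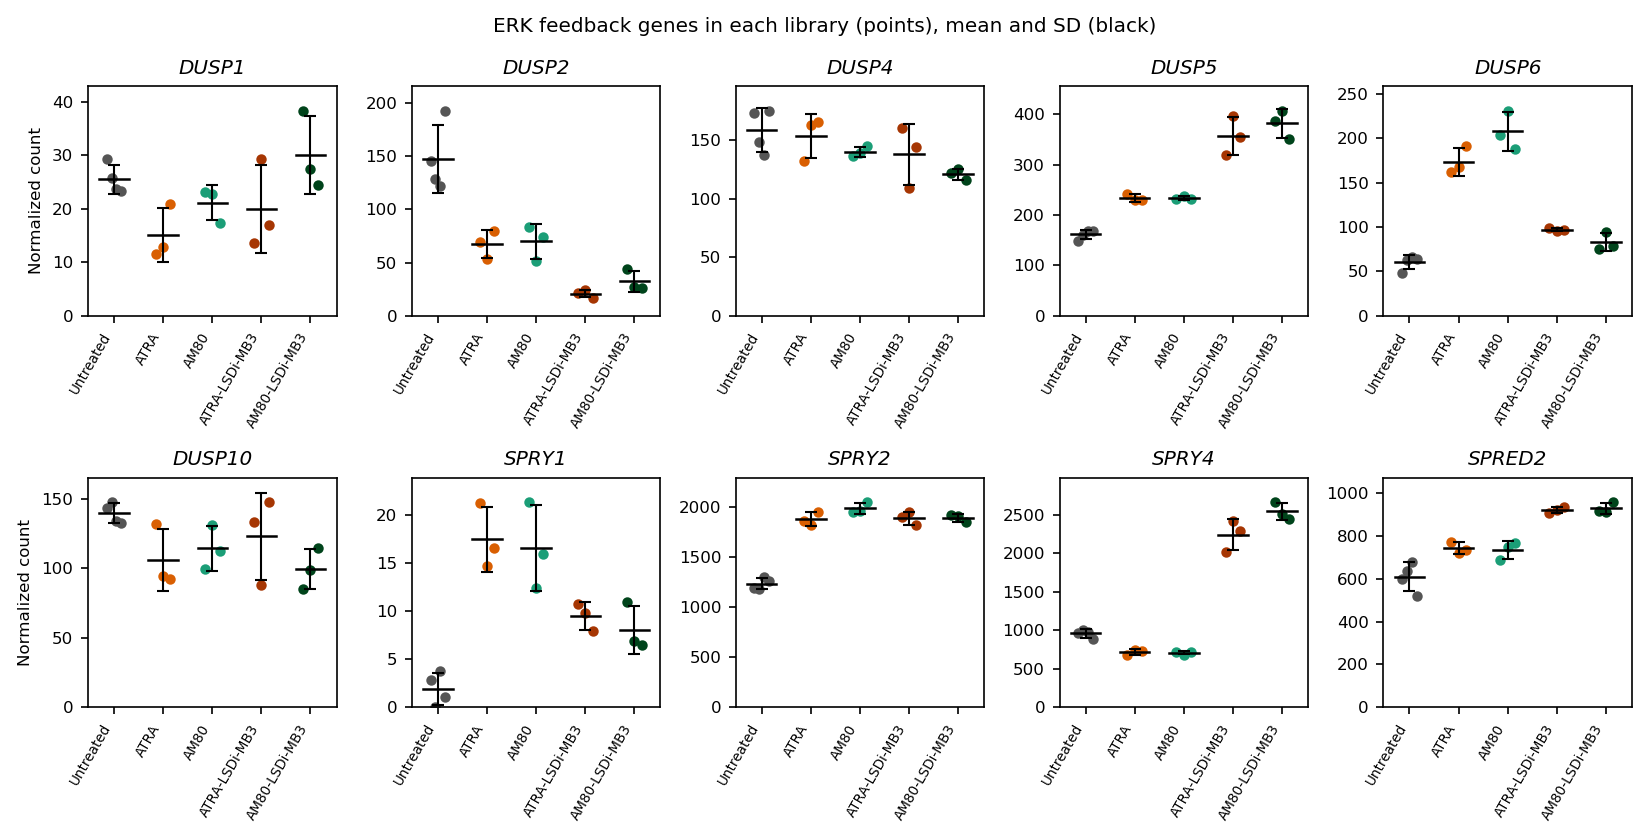
Normalized counts (vertical axes, starting at 0 and scaled for each gene) of the 10 ERK feedback genes in every library, by group, with the group mean and SD in black. DUSP6 and SPRY1 were highest with a retinoid alone, whereas SPRY4, DUSP5 and SPRED2 were highest when the inhibitors were added, and DUSP2 was lowest there.

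The first question was how each retinoid changed these genes. ATRA raised DUSP6, SPRY1 and SPRY2 and lowered DUSP1 and DUSP2. AM80 raised the same 3 genes and lowered DUSP2. Thus 5 of 10 genes changed with ATRA, against 9.45% of all genes tested, and 4 of 10 with AM80, against 10.2%. By direction, 3 rose and 2 fell with ATRA (6.52% and 2.94% of all genes), and 3 rose and 1 fell with AM80 (6.41% and 3.76%). SPRY1 passed the filter on low values only through the treated groups, and without it 4 of 9 genes changed with ATRA and 3 of 9 with AM80. On the p limit alone, 8 genes passed with ATRA (24.6% of all genes) and 7 with AM80 (28.8%). The median log2 fold change of the 10 genes was 0.13 with ATRA and 0.05 with AM80, beside -0.02 and -0.01 over all genes. Both comparisons use the same 4 untreated libraries and are therefore not independent of each other.

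DUSP6, a cytoplasmic phosphatase that acts selectively on ERK, gave 48.8, 62.8, 66.0 and 64.3 normalized counts in the untreated libraries. It reached 162, 167 and 192 with ATRA and 204, 231 and 188 with AM80. Every retinoid library lay above every untreated library, and the 2 retinoid groups overlapped. The log2 fold change was 1.51 ± 0.13 (SE) with ATRA (2.85-fold, adjusted p = 7.5e-09, limma) and 1.77 ± 0.13 with AM80 (3.41-fold, adjusted p = 5.8e-10, limma). A gene on the opposite strand, AC024909.2, overlaps 1875 exon bases of DUSP6 but had no more than 14 reads in any library.

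DUSP2, a nuclear phosphatase first described in activated lymphocytes, moved the other way. Its untreated libraries held 145, 128, 122 and 193 normalized counts. With ATRA they fell to 69.4, 53.5 and 79.9, and with AM80 to 83.6, 51.8 and 74.5. The highest retinoid library stayed below the lowest untreated one. DUSP2 fell by 1.11 ± 0.22 (SE) on the log2 scale with ATRA (adjusted p = 0.00057, limma) and by 1.07 ± 0.22 with AM80 (adjusted p = 0.00071, limma), that is, to 0.465 and 0.478 of the untreated level.

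DUSP5, the nuclear counterpart of DUSP6 in its selectivity for ERK, was 149, 161, 168 and 167 normalized counts in untreated cells. ATRA gave 242, 229 and 229.8, and AM80 gave 232, 238 and 231. The groups did not overlap, but the difference of 1.45-fold for both retinoids (log2 0.53 ± 0.089, SE, in each, adjusted p = 0.00010 and 8.9e-05, limma) was under the fold limit. Reads of the DUSP5 pseudogenes were few, at most 12 per library for DUSP5P1 and 1 for DUSP5P2.

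SPRY2, one of the Sprouty inhibitors that act upstream of RAF and the most abundant of the 10 transcripts, was 1191, 1178, 1297 and 1256 normalized counts in untreated cells. It was 1861, 1816 and 1949 with ATRA and 1948, 1958 and 2045 with AM80. The groups were apart, and the rise was narrow in size and tight between libraries, at log2 0.61 ± 0.058 (SE) with ATRA (1.52-fold, adjusted p = 4.7e-08, limma) and 0.69 ± 0.058 with AM80 (1.61-fold, adjusted p = 6.1e-09, limma). Without ATRA replicate 3 the ATRA value was 0.58, below the fold limit.

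SPRY1, its close relative, was detected by 2, 0, 3 and 1 reads in the 4 untreated libraries. The ATRA libraries held 22, 17 and 23 reads and the AM80 libraries 23, 24 and 22. Normalized counts were 0 to 3.74 in untreated cells, 14.7 to 21.2 with ATRA and 12.4 to 21.4 with AM80, without overlap. Summed reads, corrected for library size, were 10.1 times (95% interval 4.39 to 28.6) the untreated level with ATRA and 9.18 times (4.01 to 25.9) with AM80, where the intervals cover counting error only. Fitted with no filter on low values, over 38023 genes, SPRY1 still passed (adjusted p = 0.00012 and 0.00015, limma).

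SPRY4 did not share the rise of SPRY1 and SPRY2. Its untreated libraries stood at 965, 1009, 974 and 885 normalized counts, against 679.7, 740.1 and 735 with ATRA and 721, 682 and 724 with AM80. All 6 retinoid libraries were below the untreated ones. The log2 differences of -0.42 ± 0.070 (SE) and -0.43 ± 0.070 passed the p limit (adjusted p = 0.00012 and 6.7e-05, limma) but were under the fold limit. SPRED2, which brings the RAS-inactivating protein neurofibromin to the membrane, was 601, 635, 680.1 and 519.6 in untreated cells, 722 to 773 with ATRA and 689 to 768 with AM80. These groups were apart too, with log2 differences of 0.29 and 0.28 (SE 0.078, adjusted p = 0.0076 and 0.010, limma), also under the fold limit.

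None of the other 3 phosphatases passed with both retinoids. DUSP1, an immediate-early gene whose product acts on p38 and JNK as well as ERK, was 29.3, 25.9, 23.7 and 23.3 normalized counts in untreated cells, 11.6, 12.9 and 20.9 with ATRA and 23.2, 22.8 and 17.4 with AM80. These values rest on 12 to 44 reads per library. The ATRA difference of log2 -0.76 ± 0.26 (SE) just passed (adjusted p = 0.041, limma), and it did not pass without ATRA replicate 1 (-0.60, adjusted p = 0.19, limma), without ATRA replicate 2 (-0.67, adjusted p = 0.14, limma), or without untreated replicate 1, 2 or 3 (adjusted p = 0.094, 0.067 and 0.053, limma). It also did not pass with edgeR (adjusted p = 0.064), with DESeq2 (adjusted p = 0.10) or in limma with no filter on low values (adjusted p = 0.10). With AM80 it was -0.27 ± 0.26 (adjusted p = 0.49, limma).

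DUSP4, a nuclear phosphatase of ERK and JNK, ranged from 137 to 175 in untreated cells, from 132 to 166 with ATRA and from 136 to 145 with AM80, so the groups overlapped. DUSP10, which prefers p38 and JNK to ERK, was 133 to 148 in untreated cells, 92.2 to 132 with ATRA and 99.3 to 131 with AM80. Its groups were apart but close, and its log2 differences of -0.41 ± 0.17 and -0.29 ± 0.17 (SE) did not pass (adjusted p = 0.078 and 0.20, limma).

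**Figure D2:**
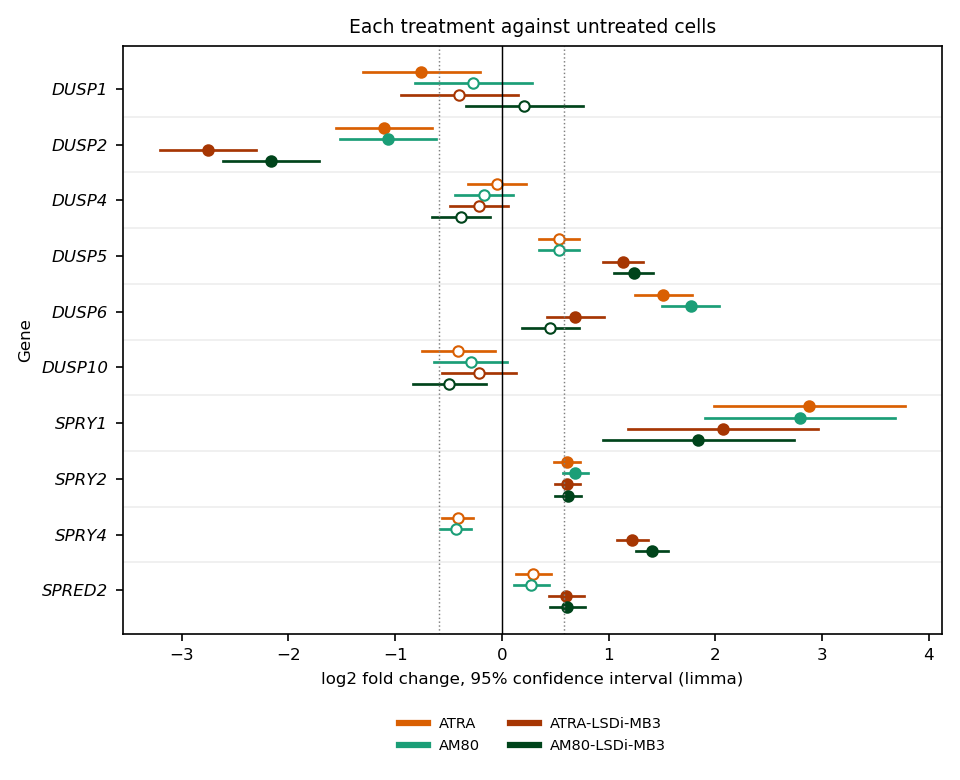
Log2 fold change (horizontal axis) of each gene against untreated cells in the 4 treated groups, with the 95% confidence interval of limma. Filled points passed both limits, open points did not, and dotted lines mark the 1.5-fold limit. SPRY4 lies left of 0 with a retinoid alone, at -0.42 and -0.43, and right of it with the inhibitors, at 1.22 and 1.41.

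The second question was what GSK-LSD1 and MB3 added to each retinoid. Against the same retinoid alone, SPRY4 and DUSP5 rose and DUSP2 and DUSP6 fell, beside either retinoid. These were 4 of 10 genes with ATRA, where 19.5% of all genes changed, and 4 of 10 with AM80, where 15.7% did. The 2 genes that rose stood against 8.15% and 6.81% of all genes, and the 2 that fell against 11.4% and 8.9%. The median log2 difference of the 10 genes was 0.10 beside ATRA and -0.13 beside AM80, against -0.02 and -0.01 for all genes.

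SPRY4 gave the clearest difference. The libraries of ATRA-LSDi-MB3 held 2015, 2414 and 2294 normalized counts and those of AM80-LSDi-MB3 2664, 2515 and 2447. Each exceeded every library with a retinoid alone, none of which was over 740.1, and every untreated library, none of which was over 1009. Adding the inhibitors raised SPRY4 by log2 1.64 ± 0.075 (SE) beside ATRA (3.11-fold, adjusted p = 2.1e-12, limma) and by 1.84 ± 0.075 beside AM80 (3.58-fold, adjusted p = 2.9e-13, limma).

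For DUSP5 the same libraries read 319, 396 and 355 with ATRA-LSDi-MB3 and 387, 407 and 350.2 with AM80-LSDi-MB3. All were above the retinoid-only libraries, whose highest was 242. The rise was log2 0.60 ± 0.095 (SE) beside ATRA (1.52-fold, adjusted p = 3.3e-05, limma) and 0.70 ± 0.095 beside AM80 (1.62-fold, adjusted p = 7.2e-06, limma). Both fell under the fold limit when libraries were scaled to total reads (0.46 and 0.58), and the first did so without ATRA-LSDi-MB3 replicate 2 (0.52).

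DUSP6 came closer to its untreated level, at 99.6, 95.6 and 96.6 normalized counts with ATRA-LSDi-MB3 and 75.6, 94.8 and 78.5 with AM80-LSDi-MB3. No library of these groups overlapped with the retinoid alone, where the lowest was 162, or with untreated cells, where the highest was 66.0. DUSP6 fell by 0.83 ± 0.14 (SE) on the log2 scale beside ATRA (adjusted p = 5.4e-05, limma) and by 1.32 ± 0.14 beside AM80 (adjusted p = 2.4e-07, limma).

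The decline of DUSP2 went further. It read 21.5, 23.9 and 17.05 normalized counts with ATRA-LSDi-MB3 and 43.8, 27.5 and 25.7 with AM80-LSDi-MB3, all below the lowest retinoid-only library at 51.8. These libraries held 15 to 40 reads of the gene. DUSP2 fell by 1.65 ± 0.23 (SE) on the log2 scale beside ATRA (adjusted p = 8.7e-06, limma) and by 1.10 ± 0.23 beside AM80 (adjusted p = 0.00074, limma). The 2 genes that the inhibitors lowered had thus moved in opposite directions with the retinoid alone.

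SPRY2 stayed close to the level it had with a retinoid alone. It was 1893, 1944 and 1813 normalized counts with ATRA-LSDi-MB3 and 1913, 1904 and 1846 with AM80-LSDi-MB3. The differences from the retinoid alone were 0.01 (95% interval -0.12 to 0.13) and -0.07 (-0.20 to 0.06) on the log2 scale, intervals that stay well inside the 1.5-fold limit. SPRED2 was 907 to 934 and 913 to 958, above all retinoid-only libraries, with log2 differences of 0.31 and 0.34 (SE 0.083, adjusted p = 0.0046 and 0.0030, limma) under the fold limit.

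SPRY1 libraries held 11, 9 and 7 reads with ATRA-LSDi-MB3 and 10, 5 and 5 with AM80-LSDi-MB3. As normalized counts these were 7.96 to 10.7 and 6.44 to 10.96, below the retinoid-only libraries and above the untreated ones. The log2 differences from the retinoid alone, -0.81 ± 0.46 and -0.95 ± 0.46 (SE), did not pass (adjusted p = 0.15 and 0.11, limma). They did pass with edgeR on the recovered reads (-0.86 and -0.97, adjusted p = 0.049 and 0.044), in limma with a pseudocount of 5 (adjusted p = 0.048 and 0.031) and in limma fitted to the compared groups alone (adjusted p = 0.028 and 0.040), so the call depended on the setting.

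For DUSP1, DUSP4 and DUSP10 no difference passed beside either retinoid. The DUSP1 libraries spread widely, from 13.7 to 29.3 normalized counts with ATRA-LSDi-MB3 and from 24.5 to 38.4 with AM80-LSDi-MB3, and the log2 differences were 0.36 ± 0.28 and 0.48 ± 0.28 (SE). DUSP4 was 109 to 160.1 and 116 to 125, with differences of -0.17 and -0.21 (SE 0.14). DUSP10 was 88.0 to 148 and 85.5 to 115, with differences of 0.20 and -0.20 (SE 0.18).

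**Figure D3:**
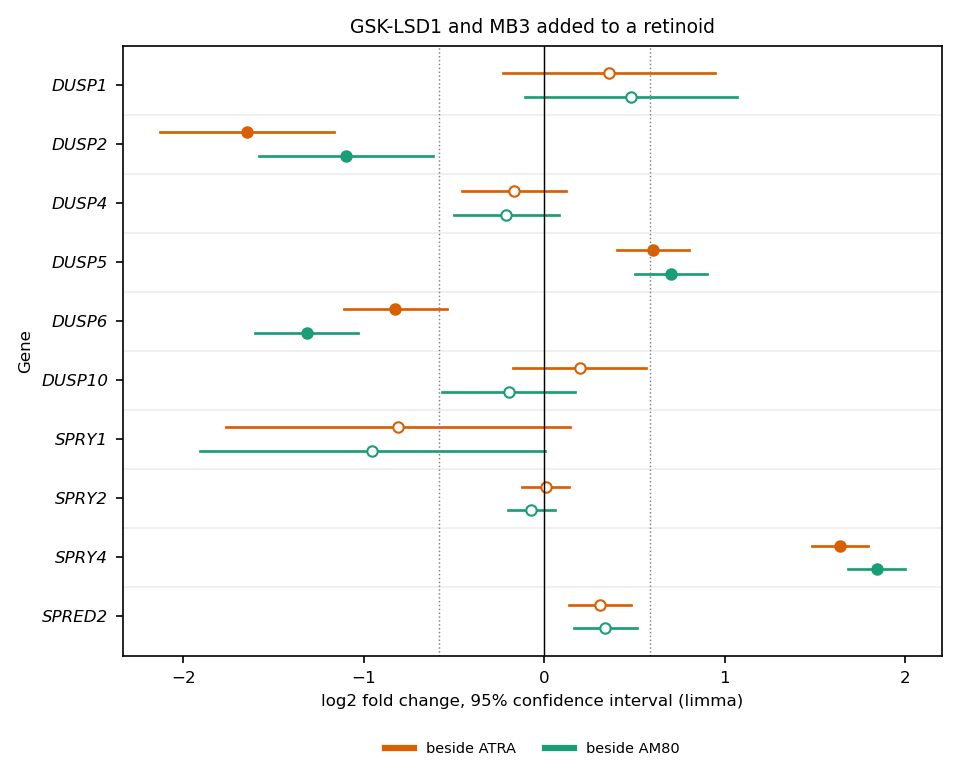
Log2 fold change (horizontal axis) of each gene when GSK-LSD1 and MB3 were added to ATRA or to AM80, against the same retinoid alone, with the 95% confidence interval of limma. Filled points passed both limits, and dotted lines mark 1.5-fold. SPRY4 lies farthest to the right, at 1.64 and 1.84, and DUSP2 and DUSP6 lie to the left beside both retinoids.

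Against untreated cells, 6 of the 10 genes were higher with ATRA-LSDi-MB3 and 5 of the 10 with AM80-LSDi-MB3. With ATRA-LSDi-MB3, DUSP5, DUSP6, SPRY1, SPRY2, SPRY4 and SPRED2 rose and DUSP2 fell, 7 of 10 genes, where 29.1% of all genes changed. With AM80-LSDi-MB3 the same genes except DUSP6 passed, 6 of 10, where 26% of all genes changed. The 6 and 5 that rose compare with 14.2% and 12.9% of all genes, and the 1 that fell with 14.8% and 13.1%. Without SPRY1 the counts were 6 of 9 and 5 of 9. The medians of the 10 genes were 0.61 and 0.53 on the log2 scale, against values of 0.00 over all genes. When libraries were scaled to total reads, 3 genes rose and 1 fell with ATRA-LSDi-MB3, and 3 rose and 2 fell with AM80-LSDi-MB3, because SPRY2 (0.47 and 0.43), SPRED2 (0.46 and 0.43) and, with ATRA-LSDi-MB3, DUSP6 (0.54) came under the fold limit, while DUSP10 passed it with AM80-LSDi-MB3 (-0.67). That scaling moved the median of all genes from 0.00 to -0.15 and -0.19.

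SPRY4 was log2 1.22 ± 0.070 (SE) above untreated cells with ATRA-LSDi-MB3 (2.33-fold, adjusted p = 8.9e-12, limma) and 1.41 ± 0.070 with AM80-LSDi-MB3 (2.65-fold, adjusted p = 7.5e-13, limma). DUSP5 rose by 1.13 ± 0.089 and 1.23 ± 0.089 (adjusted p = 1.2e-09 and 2.9e-10, limma), and DUSP2 fell by 2.75 ± 0.22 and 2.17 ± 0.22 (adjusted p = 1.2e-09 and 4.1e-08, limma). DUSP2 at 0.148 and 0.223 of the untreated level was the deepest loss among the 10 genes.

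SPRY2 stood 0.61 and 0.62 above untreated cells (SE 0.058). SPRED2 rose by 0.60 and 0.61 (SE 0.078, adjusted p = 1.4e-06 and 1.2e-06, limma), close to the limit, and without untreated replicate 4, its lowest library, the values were 0.53 and 0.54 and did not pass. DUSP6 remained 0.69 ± 0.13 above untreated cells with ATRA-LSDi-MB3 (adjusted p = 0.00011, limma) and 0.45 ± 0.13 with AM80-LSDi-MB3 (adjusted p = 0.0050, limma, under the fold limit). SPRY1 was 5.59 times (95% interval 2.26 to 16.5) and 4.84 times (1.87 to 14.7) the untreated level by summed reads, counting error only, and with no filter on low values it passed in both (adjusted p = 0.0014 and 0.0047, limma).

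DUSP4 and DUSP10 were lower with AM80-LSDi-MB3 than in untreated cells by less than the fold limit, at log2 -0.38 ± 0.13 and -0.49 ± 0.17 (SE, adjusted p = 0.017 and 0.016, limma). Without AM80-LSDi-MB3 replicate 3 the DUSP10 value was -0.60 and passed. With ATRA-LSDi-MB3 both were -0.21 and did not pass. DUSP1 did not pass with either combination (-0.40 ± 0.26 and 0.21 ± 0.26), although without ATRA-LSDi-MB3 replicate 2 the first value was -0.70 and passed (adjusted p = 0.036, limma).

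The third question was whether the 2 retinoids differed at the same dose and time. For the 10 genes no difference between AM80 and ATRA passed, either alone (0.0478% of all genes tested, 7 genes, changed) or with the inhibitors (0% of all genes by limma and edgeR, and 16 genes by DESeq2). Fitted to the compared groups alone, limma called 0 genes for the retinoids alone and 127 with the inhibitors. At an unadjusted p under 0.05, limma gave 0 of the 10 genes for the retinoids alone, where 13.9% of all genes passed. With the inhibitors it gave 3, where 18.1% of all genes passed (2656 genes). At the limits of adjusted p and fold change, neither edgeR nor DESeq2 called any of the 10 in either comparison. Adjusted p-values were taken over all genes tested, in each of the 2 comparisons.

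The intervals show how large a difference these libraries leave room for. For the tightest genes, AM80 minus ATRA was 0.08 (95% interval -0.05 to 0.21) for SPRY2, -0.02 (-0.17 to 0.14) for SPRY4, -0.02 (-0.19 to 0.16) for SPRED2 and 0.00 (-0.20 to 0.20) for DUSP5 on the log2 scale, all inside the 1.5-fold limit. DUSP6 was 0.26 higher with AM80 (-0.03 to 0.54), also inside it. For DUSP1 (0.49, -0.10 to 1.07) and SPRY1 (-0.09, -1.04 to 0.86), the genes with the fewest reads, the interval reached beyond 1.5-fold. A difference of that size was therefore not excluded for them.

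With the inhibitors, the 3 genes under an unadjusted p of 0.05 were higher with AM80. DUSP2 differed by log2 0.59 (95% interval 0.10 to 1.07, adjusted p = 0.21, limma), and its lowest AM80-LSDi-MB3 library at 25.7 was above its highest ATRA-LSDi-MB3 library at 23.9. SPRY4 differed by 0.19 (0.03 to 0.34, adjusted p = 0.22, limma), likewise without overlap. DUSP1 differed by 0.61 (0.02 to 1.197, adjusted p = 0.26, limma), with overlap. DUSP6 leaned the other way, at -0.23 (-0.52 to 0.05).

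Whether the inhibitors acted differently beside the 2 retinoids was tested as an interaction. None of the 10 genes passed (0% of all genes by limma and edgeR, 5 genes by DESeq2, and 2211 genes, 15.1%, at an unadjusted p under 0.05 by limma), and 1 of the 10, DUSP6, had an unadjusted p under 0.05. Its decline was log2 -0.49 (95% interval -0.89 to -0.09) larger beside AM80 than beside ATRA (adjusted p = 0.26, limma).

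**Figure D4:**
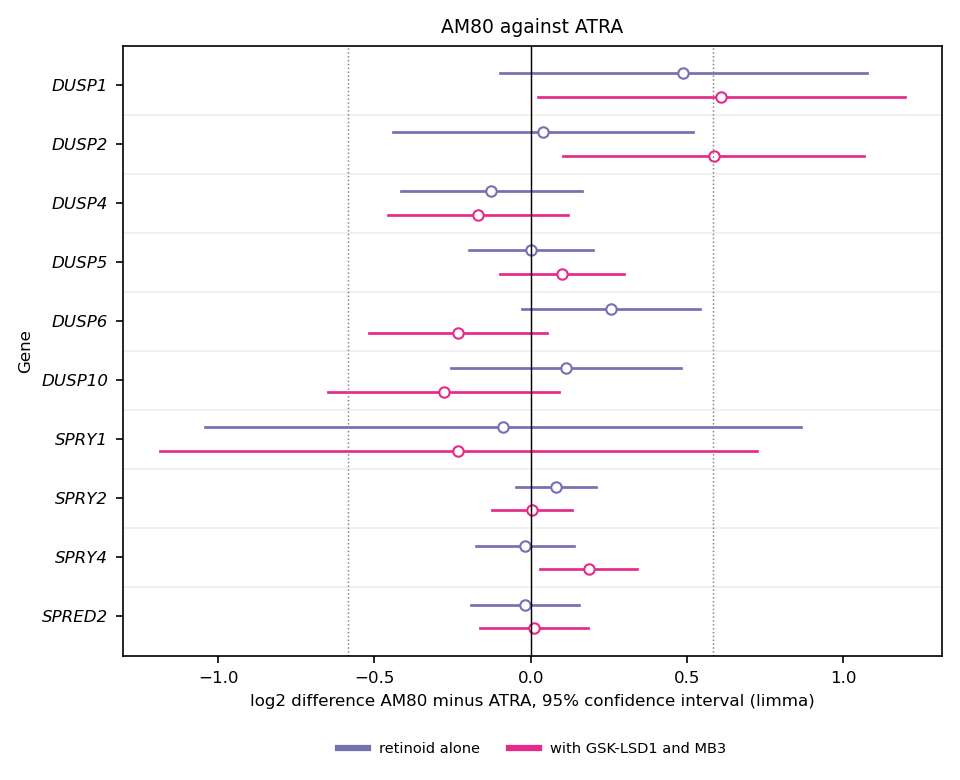
Log2 difference AM80 minus ATRA (horizontal axis) for each gene, without and with GSK-LSD1 and MB3, with the 95% confidence interval of limma. All points are open because none passed the limits, dotted lines mark 1.5-fold, and the widest intervals belong to SPRY1 and DUSP1.

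The order of the 5 groups therefore differed from gene to gene. SPRY4 ran AM80, ATRA, Untreated, ATRA-LSDi-MB3, AM80-LSDi-MB3 from low to high, with only AM80 and ATRA overlapping. DUSP5 and SPRED2 were lowest in Untreated, then in the retinoids and highest in the combinations, with ranges apart between these levels, and the 2 retinoids overlapped at each of the upper levels. DUSP6 ran from Untreated through AM80-LSDi-MB3 and ATRA-LSDi-MB3 to the retinoids alone, with overlap between ATRA and AM80 at the top. All neighbours overlapped for DUSP4 and DUSP10.

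The genes whose log2 levels tracked each member most closely over the 16 libraries differed between members, as a description across libraries that share their treatments. For DUSP6 they were CD93 (Pearson r = 0.962), LHX6 (0.961) and F2R (0.960). For SPRY2 they were DHRS3 (0.987), MAN1A1 (0.985) and THBD (0.985), of which DHRS3 encodes a retinaldehyde reductase. SPRY4 was tracked by S1PR3 (0.995), DUSP5 by HRH1 (0.993), SPRED2 by WIPF2 (0.985) and DUSP2 by GPT2 (0.985), whereas the best match of DUSP10 reached no more than 0.806 (BRCC3).

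The rest of the pathway was read from 4 lists of named genes, likewise chosen with earlier results of these data known. Their counts stand beside the shares of all genes tested that changed. These were 9.45% with ATRA, 10.2% with AM80, and 19.5% and 15.7% for the inhibitors beside them. By direction, 6.52% of all genes rose and 2.94% fell with ATRA, and 6.41% rose and 3.76% fell with AM80. When the inhibitors were added, 8.15% rose and 11.4% fell beside ATRA, and 6.81% rose and 8.9% fell beside AM80. Of 16 other MAP kinase phosphatases, Spred genes and related phosphatases, 10 were tested. With ATRA 2 rose and 1 fell, and with AM80 1 rose and 1 fell, at list medians of log2 0.17 and 0.15. With the inhibitors 1 rose and 1 fell beside ATRA, and 2 fell beside AM80 (medians -0.17 and -0.14). DUSP9, another cytoplasmic phosphatase of ERK, was likewise highest with a retinoid alone, going from 15.6 ± 5.3 normalized counts in untreated cells to 50.2 ± 4.2 with ATRA and 54.6 ± 21 with AM80 (log2 1.68 and 1.73). With the inhibitors it was 19.9 ± 2.4 and 22.6 ± 5.4, a fall of log2 -1.29 and -1.18 from the retinoid alone, on 6 to 82 reads per library. DUSP3, a small phosphatase of ERK and JNK, fell from 598 ± 40 to 390 ± 33 and 385 ± 13 (log2 -0.62 and -0.63). SPRED1, the close relative of SPRED2, was 599 ± 69 in untreated cells and rose from 554 ± 32 with ATRA to 979 ± 40 with ATRA-LSDi-MB3 (log2 0.82, adjusted p = 5.3e-07, limma). SPRED1, and DUSP19 (log2 0.67 with ATRA, and -0.68 for the inhibitors beside AM80), are named after their values were seen.

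Of 45 genes of the ERK cascade, from receptor adaptors to ERK and its RSK kinases, 41 were tested. The retinoids raised 2 and lowered none, with either ATRA or AM80 (10 of the 41 passed the p limit in each comparison, near the 24.6% and 28.8% of all genes, and the list medians were log2 0.04 and 0.06). The 2 were RASAL3, a RAS GTPase-activating protein (log2 1.04 with ATRA and 0.86 with AM80), and RPS6KA1, a kinase that ERK activates (0.64 and 0.64). Adding the inhibitors raised 7 and lowered 3 beside ATRA (8.15% and 11.4% of all genes), and raised 5 and lowered 1 beside AM80 (6.81% and 8.9%). Together these were 10 and 6 of the 41, near the 19.5% and 15.7% of all genes (medians 0.18 and 0.18). KSR1, a scaffold for RAF, MEK and ERK, fell from 219 ± 13 to 99.3 ± 5.4 beside ATRA and from 213 ± 3.8 to 106 ± 4.7 beside AM80 (log2 -1.13 and -0.995). The adaptor GAB2 (log2 0.85 and 1.05), the RAS exchange factor SOS2 (0.85 and 0.69) and the RAS GTPase-activating protein RASA2 (0.85 and 0.68) rose. Chosen after their values were seen, the other 2 that fell beside ATRA were HRAS (-0.73) and RASA3 (-0.59), and the other 2 that rose beside AM80 were SHC1 (0.59) and IQGAP1 (0.59).

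Of 22 genes known as transcriptional outputs of ERK, 19 were tested. The retinoids raised 5 and lowered 3, with either compound (list medians log2 0.15 and 0.13). MYC fell from 6330 ± 377 normalized counts to 3483 ± 55 with ATRA and 3396 ± 209 with AM80 (log2 -0.86 and -0.90). The AP-1 subunits FOS (-0.83 and -0.75) and FOSL1 (-0.67 and -0.73) fell as well, whereas LIF, a cytokine (1.60 and 1.57), and PHLDA1 (0.89 and 0.83) rose. IER3, counted among the 5, had 0 to 24 reads per library in these groups and passed the filter on low values only through treated cells, and with no filter it still passed (adjusted p = 0.0020 and 0.00044, limma). The other 2 that rose, ETV5 (0.60 and 0.60) and ELK3 (0.74 and 0.83), are ETS factors named after their values were seen. The outputs that rose with DUSP6, SPRY1 and SPRY2 thus stood beside others that fell in the same libraries.

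Adding the inhibitors raised 6 and lowered 3 of these outputs beside ATRA, and raised 4 and lowered 2 beside AM80 (medians 0.37 and 0.43). SPRED1 belongs to this list too. PLAUR, the urokinase receptor, rose from 890.5 ± 37 to 3357 ± 515 beside ATRA and from 889 ± 105 to 4550.2 ± 466 beside AM80 (log2 1.90 and 2.36). EGR1, an immediate-early transcription factor, rose from 268 ± 24 to 790.2 ± 138 and from 256 ± 31 to 912 ± 244 (1.55 and 1.80), and FOSL1 rose by 0.73 and 0.92. MYC fell further (-0.72 and -0.94), and CCND1, which encodes cyclin D1, fell as well (-0.86 and -1.02). Outside the naming rule, ETV5 was the fourth gene that rose beside AM80 (0.63), and LIF the third that fell beside ATRA (-0.68). Of 11 JNK and p38 kinases, 10 were tested and 1 rose with ATRA and 1 fell with each retinoid, the latter being MAP2K6, which activates p38 (log2 -1.56 and -1.42). With the inhibitors 1 fell beside ATRA and 1 beside AM80. Named after their values were seen, these were MAPK12 (-0.83) and again MAP2K6 (-0.96), and the 1 that rose with ATRA was MAPK13 (0.63). MAP2K6 had few reads, 20 to 40 per library with ATRA, 30 to 55 with AM80 and 5 to 17 with AM80-LSDi-MB3.

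**Figure D5:**
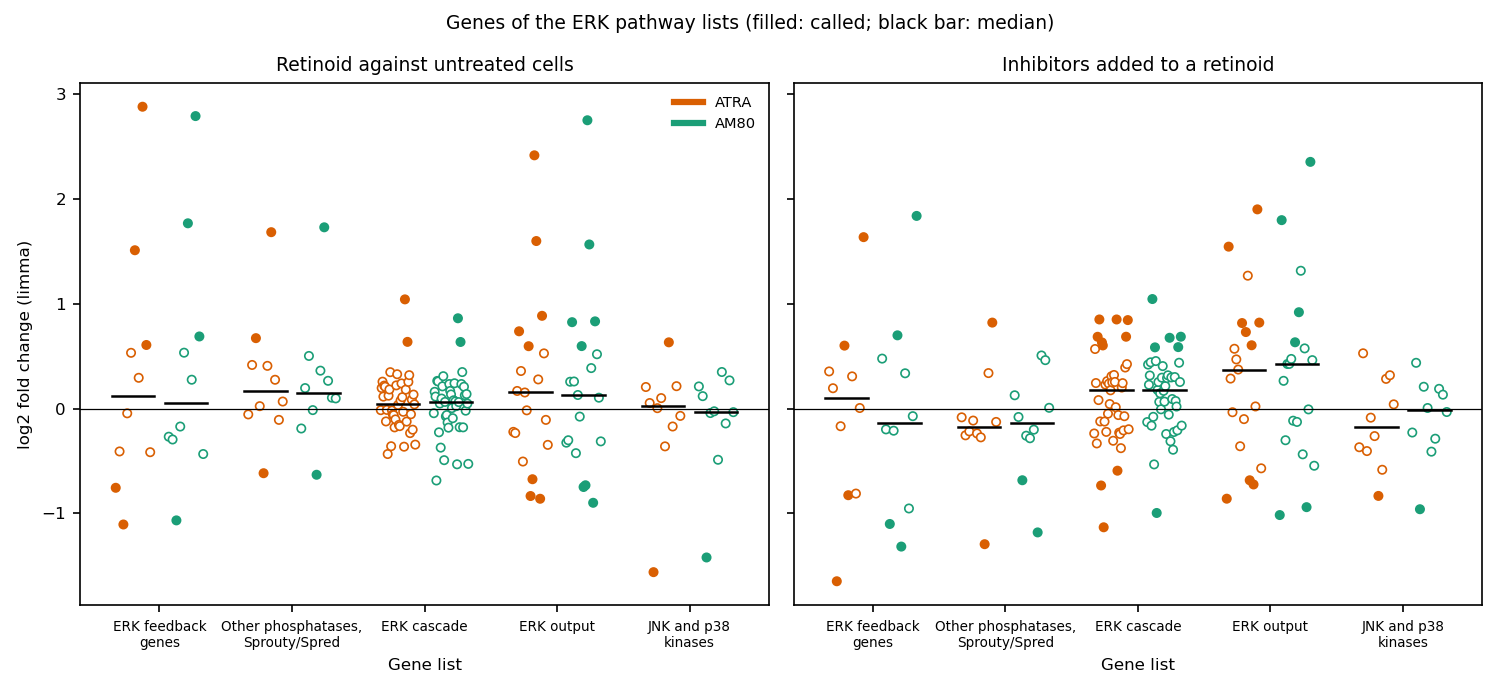
Log2 fold change (vertical axis) of every tested gene in 5 lists, for ATRA and AM80 against untreated cells (left) and for the inhibitors added to each retinoid (right). Each point is 1 gene, filled where it passed both limits, and the black bar is the median of the list. Called genes lie on both sides of 0 among the feedback genes and among the ERK outputs.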

How the data were processed

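The deposited table holds normalized counts (signal) for 62700 genes in 16 libraries. Per the submitters' processing notes, the authors used FastQC, cutadapt, STAR, featureCounts and DESeq2, which divides counts by a size factor for each library. Genome build, annotation and strand setting are not given in the sources used here. The labels and the study's methods name different RNA and library kits. Within a tolerance of 0.001, 100% of values came out as whole reads once the size factors were recovered, and depth was 11963898 to 33789718 reads.

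Log2(normalized count + 1) was fitted with limma (3.58.1, R 4.3.3, trend) with 1 coefficient for each of 5 groups over all 16 libraries, after leaving out genes whose mean was under 10. Members were matched by Ensembl ID to GENCODE v29 symbols. The 10 members and the lists were chosen with earlier results of these data known. Named list genes passed both limits with both retinoids, at most 3 per direction, list and contrast. The limma, edgeR and DESeq2 fits were tested on simulated data. Alternatives were a pseudocount of 5, no filter, scaling to total reads, edgeR (4.0.16) and DESeq2 (1.42.0) on recovered reads, only the groups compared, a replicate block, no fold limit, and leaving out each library. Like genes were ranked by Pearson r of log2 values over the libraries. The result of 1 further marker gene is not reported here.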

Additional observations from a re-analysis of the deposited data

How the results depend on the processing

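Counts of the 10 genes past both limits stayed within 1.5 times of the reported ones, except that without a fold limit 8 genes passed for ATRA and 7 for AM80 relative to untreated cells, and that scaling to total reads left 4 with ATRA-LSDi-MB3. Leaving out 1 library at a time gave 4 to 5 (ATRA), 4 (AM80), 6 to 8 (ATRA-LSDi-MB3) and 5 to 7 (AM80-LSDi-MB3) against untreated cells, 3 to 4 and 4 to 5 for the inhibitors beside ATRA and AM80, and 0 in the other 3 comparisons. No single-gene value that was called in either fit reversed in sign, and signs of values called in neither were not compared. Of the alternatives 22 lost a call, 10 gained one and 2038 stayed as they were, called or not called. Over all genes, edgeR and DESeq2 on recovered reads called 1414 and 1332 with ATRA and 1583 and 1454 with AM80. In AM80 against ATRA, where limma called 7 genes, edgeR called 16 and DESeq2 17, and limma called 34 with the replicate block and 0 fitted to the compared groups alone. With the inhibitors, where limma called 0, it called 84 with the block and 127 fitted to the compared groups alone. Replicate numbers did not pair the libraries (r from -0.11 to 0.19, over 0.1 in 4 of 30 pairs, 5 of 16 libraries closest to their own number). With the replicate block 4, 4, 6 and 5 genes passed against untreated cells, DUSP1 with ATRA (adjusted p = 0.054, limma) and SPRED2 in both combinations (0.53 and 0.54) not passing, and the other calls held. Depth limits DUSP1 and SPRY1, with at most 44 and 24 reads per library.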
